A study of Homo sapiens with 12 samples.

Results

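Long noncoding RNAs and antisense RNAs were followed in spheroids of DU145 cells, a human prostate cancer cell line, with and without α2 integrin, the collagen-binding subunit of α2β1 integrin. The RNAs are the rows of the count table whose symbol starts with LINC, the prefix for long intergenic noncoding RNAs, or ends in -AS and a digit, the ending for RNAs transcribed from the strand opposite to a named gene, and whose mean raw count over the 12 samples was 20 or more. Of 26485 rows, 1862 carried such a symbol. No read was counted for 574 of them, 890 were counted with a mean under 20, and 398 reached it, 122 with a LINC symbol and 276 with an antisense symbol. The mean count chose the RNAs, so their overall level is given as a description. The rule holds no comparison between the lines. An RNA near the limit can still reach it through the line where it is high, as LINC01322 did. The RNAs just inside the limit were HOXC-AS3 with a mean count of 20.1, LINC01273 with 20.25 and ACVR2B-AS1 with 20.4, and GAS5-AS1 with 19.9, MAFA-AS1 with 19.8 and TOB1-AS1 with 19.8 fell just outside it. All 398 passed the filter on low counts used for the tests.

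All 3 lines carry a CRISPR-Cas9 knockout of ITGA2, the gene of α2 integrin. DU145KO cells received no further construct, DU145KO+α2 cells were stably transfected with a vector carrying α2 integrin cDNA, and DU145KO+vector cells were stably transfected with the same vector empty. The knockout cells had been selected by GFP and by the absence of α2 at the surface, and both transfected lines, each a single stable line, were kept under geneticin, so that selection and transfection differ between DU145KO and the other lines. RNA was taken from 4 biological replicates of each line after 72 hours in serum-free medium as spheroids of 8000 cells, and polyadenylated RNA was sequenced with a strand-preserving kit.

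Long noncoding RNAs are transcripts that are capped and often spliced and polyadenylated like messenger RNAs but carry no long reading frame. Some hold proteins or microRNAs, some act on the genes beside them through the act of transcription, and for most no role is known. Antisense RNAs can share a bidirectional promoter with their sense gene, can overlap its exons or can lie within its introns, and their level may or may not follow that of the sense gene.

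The total count per sample ranged from 13948734 to 19988111. Values per sample are CPM, read counts scaled to a common total after normalization of the library sizes by TMM, and levels between genes are compared as RPKM, which also divides by gene length. ITGA2 stood at 305 ± 33.5 CPM (SD, n = 4) in DU145KO+α2, 17.6 ± 3.15 in DU145KO+vector and 20.7 ± 4.16 in DU145KO, with a log2 fold change of 4.11 (SE 0.16, edgeR adjusted p = 3.15e-09) between the transfected lines. Gene counts do not show whether the ITGA2 reads of the α2 negative lines come from edited transcripts. The epithelial keratins KRT8 and KRT18 were at 319.7 to 624 and 254 to 463 CPM. The leukocyte markers PTPRC and CD3E had at most 1 read in a sample, KLK3 had none, and the endothelial marker PECAM1 had 8 to 22. EPCAM (57.3 to 186 CPM) and CDH1 (46.8 to 161 CPM) were detected in every sample. The 398 RNAs took between 0.493% and 0.550% of the counts of a sample, with no line apart from the others.

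Most of the RNAs were scarce. Their mean RPKM over the 12 samples had a median of 2.44, against 9.59 for the 13121 protein coding genes tested, and 42 of 398 (10.6%) were above 10 RPKM, against 48.7% of the coding genes. LINC and antisense RNAs had medians of 2.32 and 2.46. The mean counts ran from 20.1 to 10960, and 15 RNAs had a mean of 1000 or more. The precision followed the counts: the median standard error of a log2 fold change between DU145KO+α2 and DU145KO+vector was 0.18 over these RNAs and 0.11 over all genes tested, so that a change of a given size was harder to detect here than in the average gene.

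**Figure D1:**
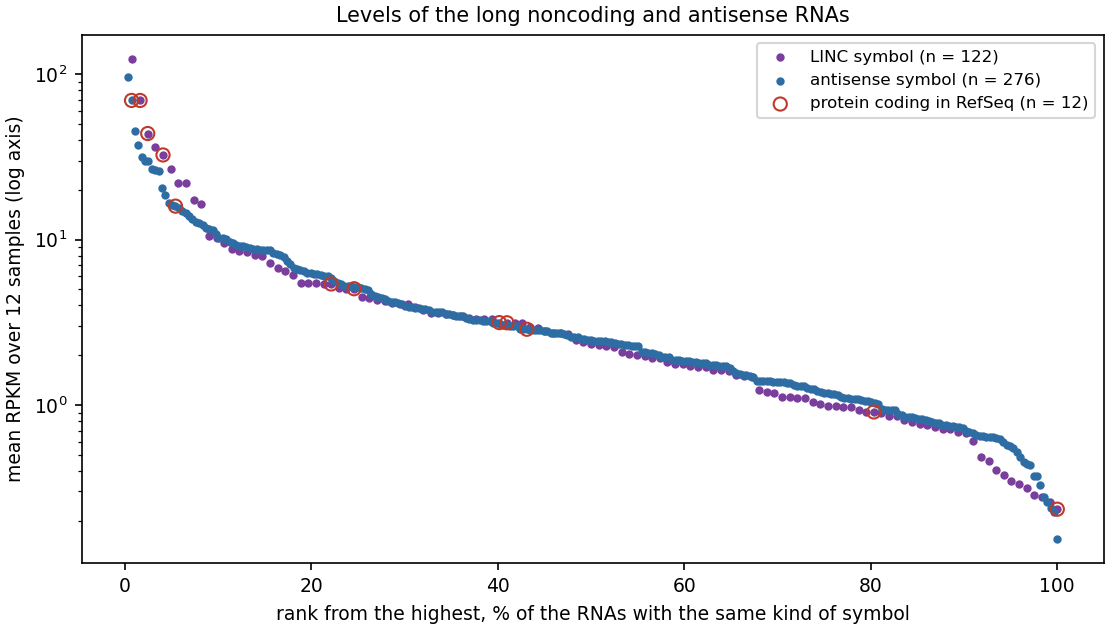
Mean RPKM over the 12 samples (log axis) of each of the 122 LINC and 276 antisense RNAs, ordered from the highest within its kind as a percent of that kind. Circles mark the 12 RNAs that RefSeq lists as protein coding, 4 of which are among the 10 highest levels of all, and both kinds follow nearly the same curve.

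The RNA with the highest level was LINC00657, named NORAD in RefSeq, a cytoplasmic RNA that binds Pumilio proteins, at 124 RPKM. LRRC75A-AS1, now SNHG29, a host gene of small nucleolar RNAs, followed with 95.8 RPKM. MMP24-AS1 (MMP24OS) and LINC00998 (SMIM30) were both at 69.6 RPKM and LINC01420 (NBDY) at 43.9 RPKM, and all 3 are listed as protein coding in RefSeq, the last 2 as short proteins of the membrane and of messenger RNA decapping bodies. FGD5-AS1 stood at 45.2 RPKM, OIP5-AS1, the human counterpart of the Cyrano RNA, at 37.3 and LINC01578 (CHASERR), which lies beside CHD2, at 36.2. In all, 12 of the 398 rows carry a noncoding name in the count table and a protein coding entry in RefSeq.

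The log2 fold changes of these 8 RNAs between lines were at most 0.30 in size. LINC00657 had 684, 640, 660 and 626 CPM in the 4 DU145KO+α2 samples, 664, 676, 635 and 618 in DU145KO+vector and 750, 733, 687 and 630 in DU145KO. FGD5-AS1 had 208, 203, 198 and 193 CPM in DU145KO+α2, 196, 198, 197 and 202 in DU145KO+vector and 205, 193, 190 and 201 in DU145KO. The groups overlapped for both, and the log2 fold change between DU145KO+α2 and DU145KO+vector was 0.01 (SE 0.08, edgeR adjusted p = 0.963) for LINC00657 and 0.01 (SE 0.06, adjusted p = 0.921) for FGD5-AS1. Among the 8 highest, MMP24-AS1 alone passed an adjusted p of 0.05 in a comparison: it had 149, 150, 131 and 122 CPM in DU145KO+α2 and 119, 127, 104 and 101 in DU145KO+vector, ranges that overlap, with a log2 fold change of 0.30 (SE 0.09, adjusted p = 0.0486). In the fit with the replicate number as a block, 3 more of the 8 passed between these lines, LINC00998 with -0.28 (adjusted p = 0.000885), LINC01578 with 0.28 (adjusted p = 0.00561) and LINC01420 with 0.19 (adjusted p = 0.0459), and MMP24-AS1 also passed against DU145KO, with 0.25 (adjusted p = 0.00105). LINC00998 passed in that fit between DU145KO+vector and DU145KO as well, with 0.28 (adjusted p = 0.00242).

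The comparison of DU145KO+α2 with DU145KO+vector asks which RNAs differ between a line with and a line without α2 integrin that both went through transfection and selection. Each is a single stable line, so a difference with α2 and another difference between the lines cannot be told apart. The 4 replicates measure the spread within a line. A gene was called differentially expressed (DE) where its fold change was above 2 and its adjusted p below 0.05. Of the 398 RNAs, 5 (1.26%) met this rule, 2 with the higher level in DU145KO+α2 and 3 with the higher level in DU145KO+vector, beside 2.21% of all 14732 genes tested, 1.38% higher and 0.821% lower. The lower RNAs were ITGB2-AS1, LINC01322 and DGUOK-AS1, and the higher ones MSC-AS1 and PRKAG2-AS1. Of the 5, 4 are antisense RNAs, as are 276 of the 398. In every one of them the 4 samples of DU145KO+α2 lay apart from the 4 of DU145KO+vector. How many of all called genes do so was not counted, so this adds no support to the calls. In bulk RNA, a smaller share of cells with a transcript and less of it in each cell cannot be told apart.

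ITGB2-AS1 (chr21:44921035-44929680, plus strand) is transcribed across from the 5′ part of ITGB2, the gene of the β2 subunit of the leukocyte integrins. It had 2.17, 2.20, 2.07 and 1.78 CPM in DU145KO+α2, 3.27, 6.18, 8.05 and 5.23 in DU145KO+vector and 6.09, 4.34, 4.73 and 6.09 in DU145KO. All samples with α2 lay below all 8 without it. The log2 fold change was -1.46 (SE 0.24, edgeR adjusted p = 0.000886) against DU145KO+vector and -1.36 (SE 0.24, adjusted p = 0.00196) against DU145KO, and these comparisons share the DU145KO+α2 samples. Between DU145KO+vector and DU145KO it was 0.10 (SE 0.22, adjusted p = 0.892). ITGB2 itself also fell, with 18.9, 16.7, 18.3 and 17.1 CPM in DU145KO+α2, 33.7, 35.1, 33.8 and 24.9 in DU145KO+vector and 40.6, 27.1, 40.4 and 36.5 in DU145KO. Its log2 fold change was -0.85 (SE 0.13, adjusted p = 0.000568) and -1.03 (SE 0.13, adjusted p = 0.000156). The ratio of ITGB2-AS1 to ITGB2 counts overlapped between DU145KO+α2 and each other line, with a difference of -0.55 on the log2 scale against DU145KO+vector (exact permutation test, two-sided p = 0.143). Exons of ITGB2 cover 12.1% of the exon bases of ITGB2-AS1, and since the strand setting of the counting is not given in the sources used here, reads of that stretch cannot be told apart. The next tested coding genes, FAM207A and PTTG1IP, did not pass the test, with log2 fold changes of -0.17 (adjusted p = 0.345) and -0.01 (adjusted p = 0.954).

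**Figure D2:**
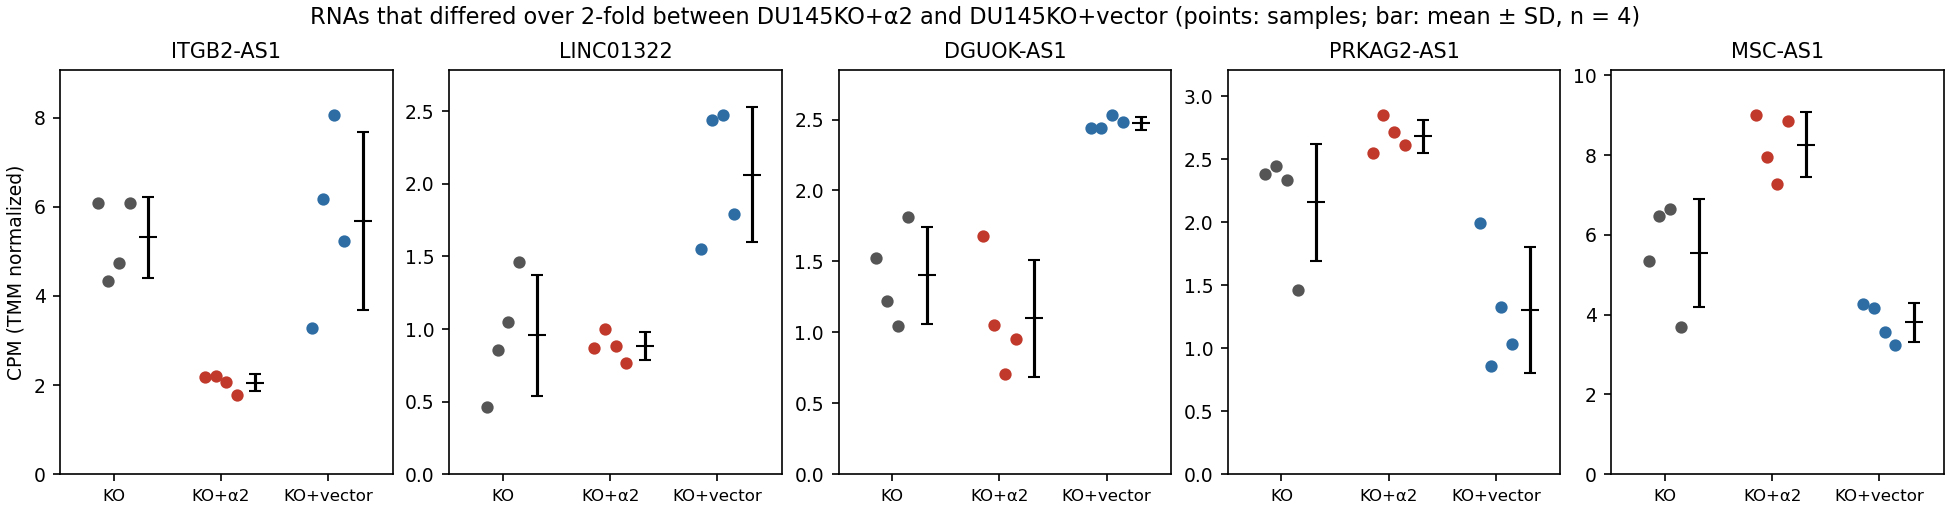
CPM of the 5 RNAs that differed over 2-fold between DU145KO+α2 and DU145KO+vector, with a point for each of the 4 samples of a line and the mean ± SD beside them. ITGB2-AS1 is low in DU145KO+α2 alone, at 1.78 to 2.20 CPM, while LINC01322 and DGUOK-AS1 are high in DU145KO+vector alone.

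LINC01322 (chr3:165206948-165539437, plus strand) and DGUOK-AS1 (chr2:73957967-73981439, minus strand) differed between the transfected lines through a higher level in DU145KO+vector. LINC01322 had 0.869, 0.999, 0.886 and 0.764 CPM in DU145KO+α2, 1.55, 2.44, 2.47 and 1.79 in DU145KO+vector and 0.463, 0.855, 1.04 and 1.46 in DU145KO, so the samples of DU145KO+vector were above all others. Its log2 fold change was -1.21 (SE 0.29, edgeR adjusted p = 0.0111) between DU145KO+α2 and DU145KO+vector and -0.13 (SE 0.31, adjusted p = 0.878) between DU145KO+α2 and DU145KO. Between DU145KO+vector and DU145KO it was 1.09 (SE 0.29, adjusted p = 0.0590), which is not a call, and 1.10 with an adjusted p of 0.00719 in the fit with the replicate number as a block, which is one. These values rest on 7 to 43 reads a sample, and LINC01322 is not among the genes tested when at least 10 reads are asked for in every sample. Its mean count of 21.25 met the limit of 20 through DU145KO+vector, with 28, 34, 43 and 26 reads there. DU145KO had 7, 14, 17 and 25 reads, and DU145KO+α2 14, 20, 15 and 12. The choice of this RNA and its difference are therefore not independent. The nearest tested coding gene is BCHE, 233467 bases away, with a log2 fold change of 0.13 (SE 0.07, adjusted p = 0.312) between the transfected lines.

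DGUOK-AS1 had only 12 to 44 reads a sample, with a mean count of 27. It had 1.68, 1.05, 0.709 and 0.955 CPM in DU145KO+α2, 2.44, 2.44, 2.53 and 2.48 in DU145KO+vector and 1.52, 1.22, 1.04 and 1.81 in DU145KO. The DU145KO+vector samples were again above all 8 others, and those of DU145KO+α2 and DU145KO overlapped. The log2 fold change was -1.17 (SE 0.25, edgeR adjusted p = 0.00569) between the transfected lines, -0.36 (SE 0.27, adjusted p = 0.499) for DU145KO+α2 against DU145KO and 0.82 (SE 0.24, adjusted p = 0.0991) for DU145KO+vector against DU145KO, the last with an adjusted p of 0.0186 with the replicate block. Its sense gene DGUOK, which encodes the mitochondrial deoxyguanosine kinase, was at 49.7 to 58.2 CPM over the 8 samples of the transfected lines and had a log2 fold change of -0.09 (SE 0.07, adjusted p = 0.486). The ratio of the antisense to the sense count was lower by 1.13 on the log2 scale in DU145KO+α2 without overlap. The exact permutation test gave a two-sided p of 0.0286, the smallest that 4 samples against 4 allow and the value of any ratio without overlap.

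MSC-AS1 and PRKAG2-AS1 were higher in DU145KO+α2 than in every other sample. MSC-AS1 (chr8:71843123-72056312, plus strand) overlaps MSC, the gene of the transcriptional repressor musculin. It had 9.01, 7.95, 7.27 and 8.85 CPM in DU145KO+α2, 4.27, 4.17, 3.57 and 3.24 in DU145KO+vector and 5.36, 6.48, 6.64 and 3.69 in DU145KO. The log2 fold change was 1.11 (SE 0.18, edgeR adjusted p = 0.000700) against DU145KO+vector and 0.58 (SE 0.17, adjusted p = 0.0477) against DU145KO. Between DU145KO+vector and DU145KO it was -0.54 (SE 0.18, adjusted p = 0.150), and the adjusted p was 0.0347 with the replicate block. MSC was scarcer, at 7 to 17 reads a sample, and its log2 fold change of 0.68 (SE 0.28, adjusted p = 0.141) between the transfected lines did not pass.

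PRKAG2-AS1 (chr7:151877042-151879223, plus strand) and PRKAG2, the gene of a regulatory subunit of the energy sensor AMP-activated kinase, start 73 bases apart on opposite strands, with their 5′ ends overlapping. PRKAG2-AS1 had only 12 to 57 reads a sample, with a mean count of 34.2. It had 2.55, 2.85, 2.72 and 2.61 CPM in DU145KO+α2, 2.0, 0.862, 1.32 and 1.03 in DU145KO+vector and 2.38, 2.44, 2.34 and 1.46 in DU145KO. Its log2 fold change between the transfected lines was 1.01 (SE 0.25, edgeR adjusted p = 0.0130), just above the threshold of a fold change of 2, and it dropped to 0.98 without DU145KO+α2 replicate 2, to 0.87 without DU145KO+vector replicate 2 and to 0.92 without DU145KO+vector replicate 4, which ends the call. Against DU145KO it was 0.32 (SE 0.23, adjusted p = 0.488). Between DU145KO+vector and DU145KO it was -0.69 (SE 0.25, adjusted p = 0.189, and 0.0524 with the replicate block), which did not pass. The larger part of the difference between the transfected lines thus lay in the lower values of DU145KO+vector. PRKAG2 had 139, 111, 152 and 136 CPM in DU145KO+α2, 94.2, 91.4, 83.8 and 86.5 in DU145KO+vector and 91.9, 88.3, 105 and 90.4 in DU145KO. It was higher in all samples with α2 than in all others, with log2 fold changes of 0.60 (SE 0.09, adjusted p = 0.000434) and 0.52 (SE 0.09, adjusted p = 0.00154). PRKAG2 exons cover 5.29% of the exon bases of PRKAG2-AS1, and the next tested coding gene, GALNT11, had a log2 fold change of 0.14 (adjusted p = 0.354) between the transfected lines.

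The promoter windows of PRKAG2-AS1 and PRKAG2 are printed because the transcripts have neighbouring starts and both passed higher between the transfected lines. Against DU145KO PRKAG2 alone passed. The window of LINC01322 is printed because it was the one LINC RNA called DE. Each holds 250 bases before and 50 after the start listed by RefSeq (GRCh38.p14), 5′ to 3′ on the strand of the gene, for LINC01322 chr3:165206698-165206997 (plus), for PRKAG2-AS1 chr7:151876792-151877091 (plus) and for PRKAG2 chr7:151877066-151877365 (minus). Capitals mark matches on either strand to GGGCGG, the GC box, to TATAAA, the TATA box, to CACGTG, the E-box, to TGANTCA, the AP-1 site, or to CCAAT.
LINC01322: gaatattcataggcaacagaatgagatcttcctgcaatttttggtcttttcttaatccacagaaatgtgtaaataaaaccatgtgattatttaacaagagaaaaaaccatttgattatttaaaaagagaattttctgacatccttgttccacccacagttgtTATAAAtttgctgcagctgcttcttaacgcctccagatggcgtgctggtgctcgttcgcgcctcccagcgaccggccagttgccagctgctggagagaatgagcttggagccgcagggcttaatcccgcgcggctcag
PRKAG2-AS1: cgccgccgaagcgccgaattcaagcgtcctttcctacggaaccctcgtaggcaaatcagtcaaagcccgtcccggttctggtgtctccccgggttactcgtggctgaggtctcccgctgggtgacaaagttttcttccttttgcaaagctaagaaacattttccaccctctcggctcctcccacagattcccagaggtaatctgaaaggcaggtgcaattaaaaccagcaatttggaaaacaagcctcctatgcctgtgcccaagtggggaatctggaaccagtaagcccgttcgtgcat
PRKAG2: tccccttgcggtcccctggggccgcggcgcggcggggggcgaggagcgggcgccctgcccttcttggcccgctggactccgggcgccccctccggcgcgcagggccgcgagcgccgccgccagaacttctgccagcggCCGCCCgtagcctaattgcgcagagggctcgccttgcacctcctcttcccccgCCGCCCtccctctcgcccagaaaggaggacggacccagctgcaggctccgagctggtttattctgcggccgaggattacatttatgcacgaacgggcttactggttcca
The LINC01322 window holds 1 TATAAA, the PRKAG2 window 2 matches to GGGCGG, both on the other strand, and the PRKAG2-AS1 window none of the motifs, although the windows of this pair share their ends. Over the 308 of these RNAs with a promoter in the table, 59.4% held GGGCGG and 5.19% TATAAA, against 45.0% and 11.5% of all 35116 promoters. The 308 belong to RNAs chosen by their count and the 35116 were not so chosen. Promoters of expressed genes alone were not compared, so the shares do not show a trait of these RNAs. CACGTG was in 9.42% against 7.26%, TGANTCA in 6.17% against 7.71% and CCAAT in 34.1% against 34.6%. Matches are given as a description of the letters.

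Changes below 2-fold were more frequent. At an adjusted p below 0.05 and any fold change, 29 of the 398 RNAs (7.29%) differed in this comparison, beside 11.9% of all genes tested. In 13 the level with α2 was higher (all genes 5.96%) and in 16 lower (5.95%). The fit with the replicate block gave 77 of the RNAs, beside 26.5% of all genes. Among the LINC RNAs 1 was higher and 8 lower, and among the antisense RNAs 12 were higher and 8 lower. The RNAs named from here to the end of this paragraph were picked after their values were seen. LINC00476, now ERCC6L2-AS1, had the smallest adjusted p of all 398, with 14.2, 14.1, 13.7 and 13.1 CPM in DU145KO+α2, 23.6, 23.3, 27.2 and 23.6 in DU145KO+vector and 15.02, 15.6, 18.6 and 21.0 in DU145KO, and a log2 fold change of -0.83 (SE 0.11, edgeR adjusted p = 0.000161). The lines did not overlap, and DU145KO+vector was also above DU145KO, by 0.47 (SE 0.11, adjusted p = 0.0295). LINC00476, ARRDC1-AS1 (-0.46, adjusted p = 0.00341) and LINC00094 (-0.41, adjusted p = 0.0222) lie on chromosome 9, and the tested genes within 2 Mb of each had a median log2 fold change of -0.32, -0.31 and -0.27 in the same comparison, a regional shift whose part in these changes was not tested. LINC01106, with 8.14, 8.85, 9.57 and 6.56 CPM in DU145KO+α2 and 12.2, 13.4, 13.7 and 14.6 in DU145KO+vector, fell by 0.70 on the log2 scale (SE 0.12, adjusted p = 0.00145), with a regional median of -0.06. SOCS2-AS1, next to a feedback inhibitor of cytokine signalling, was higher by 0.72 (SE 0.17, edgeR adjusted p = 0.00897). It had 6.58, 5.75, 7.50 and 7.64 CPM in DU145KO+α2 and 3.21, 4.09, 4.08 and 5.30 in DU145KO+vector. Its values in DU145KO, 5.95, 4.95, 5.10 and 6.44 CPM, overlapped both.

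For DU145KO+α2 against DU145KO, ITGB2-AS1 was the 1 DE RNA of 398 (0.251%), beside 2.1% of all genes tested, 0.428% higher and 1.67% lower. At any fold change 15 RNAs passed, beside 8.17% of all genes, 3 of them higher (all genes 3.09%) and 12 lower (5.08%), and 47 with the replicate block, beside 22.3%. For DU145KO+vector against DU145KO, which differ by the transfection and geneticin, none of the 398 was DE in the edgeR test, beside 0.835% of all genes, and 1 was with the replicate block (LINC01322), beside 1.48%. The unadjusted p was below 0.05 for 48 RNAs (12.1%), beside 15.03% of all genes, DESeq2 called 1 (LINC01322, adjusted p = 0.0372) and voom with limma 0. At any fold change 3 RNAs passed between these lines, 2 higher (all genes 0.496%) and 1 lower (1.84%), beside 2.34% of all genes, and 32 with the replicate block, beside 13.4%. These 3, named here after their values were seen, were AFAP1-AS1, LINC00476 and LINC00667. AFAP1-AS1, an RNA across from the gene of an actin filament binding protein, had 3.18, 2.63, 3.69 and 3.51 CPM in DU145KO, 2.05, 1.60, 1.59 and 1.46 in DU145KO+α2 and 2.44, 1.29, 1.73 and 1.79 in DU145KO+vector. It was below DU145KO in every sample of both transfected lines, with log2 fold changes of -0.95 (SE 0.21, adjusted p = 0.00900) and -0.83 (SE 0.21, adjusted p = 0.0499), comparisons that share the DU145KO samples. LINC00667 had 32.1, 29.6, 37.2 and 35.8 CPM in DU145KO, 51.6, 38.5, 51.0 and 39.3 in DU145KO+α2 and 53.6, 41.9, 50.2 and 46.8 in DU145KO+vector, and was higher in both by 0.42 (SE 0.11, adjusted p = 0.0301) and 0.52 (SE 0.11, adjusted p = 0.0244). With a sample left out the DE count against DU145KO reached 3 for DU145KO+α2, without its replicate 1, and 2 without its replicate 2 or DU145KO replicate 2, 3 or 4, through AFAP1-AS1, PSMB8-AS1 and LINC01123. For DU145KO+vector it was 2 without DU145KO replicate 4 (LINC01322 and LINC01137) or without its own replicate 1 (LINC01322 and AFAP1-AS1).

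Across all lines, the 4 samples with α2 lay above all 8 others for 9 RNAs, beside 3.4% of all genes tested, and below them for 11, beside 3.75%, together 20 of 398 (5.03%), beside 7.15%. Above were MSC-AS1, PRKAG2-AS1, FEZF1-AS1, FOXD3-AS1, KIF9-AS1, KLF3-AS1, DHRS4-AS1, RUNDC3A-AS1 and LINC00294. Below were ITGB2-AS1, LINC00476, LINC01106, LINC01138, LINC01184, LINC01278, ARRDC1-AS1, KMT2E-AS1, RPARP-AS1, SLCO4A1-AS1 and WDFY3-AS2. RPARP-AS1, picked after its values were seen, separated all 3 lines, with 17.0, 15.5, 15.4 and 17.8 CPM in DU145KO+α2, 19.6, 20.2, 23.5 and 22.8 in DU145KO+vector and 27.6, 25.3, 26.3 and 24.2 in DU145KO.

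A list of 44 RNAs with a described role in other systems was held against the data. Of these, 27 are among the 398, and none was DE in any of the 3 comparisons with edgeR, DESeq2 or voom. Of the 30 listed RNAs tested, which include 3 with a mean count under 20, the unadjusted edgeR p was below 0.05 for 5 between the transfected lines, 4 between DU145KO+α2 and DU145KO and 5 between DU145KO+vector and DU145KO, beside 24.9%, 21.4% and 15.03% of all genes tested. The most abundant of the list were LINC00657, FGD5-AS1, OIP5-AS1, LINC00467 and LINC00963. At any fold change DU145KO+α2 had less LINC00152 and LINC00467 than DU145KO+vector, and less AFAP1-AS1 and LINC01138 than DU145KO. These were 2 of the 30 in each comparison, where 11.9% and 8.17% of all genes tested passed. With the replicate block 6 listed RNAs were lower and none higher in the first of these comparisons, and 4 lower and 1 higher in the second, where 26.5% and 22.3% of all genes passed. Between DU145KO+vector and DU145KO 1 was lower (AFAP1-AS1), beside 2.34% of all genes, and with the block 3 were lower and 1 higher, beside 13.4%. LINC00152, now CYTOR, had 2.73, 2.80, 2.72 and 2.74 CPM in DU145KO+α2, 4.27, 4.24, 4.08 and 5.03 in DU145KO+vector and 3.24, 2.14, 2.52 and 3.92 in DU145KO, with a log2 fold change of -0.68 (SE 0.18, edgeR adjusted p = 0.0220) between the transfected lines. A near-identical copy of LINC00152 lies elsewhere on chromosome 2, so that the unique reads behind this value cover it in part. LINC00467 had 19.9, 17.1, 18.0 and 17.3 CPM in DU145KO+α2 and 24.9, 22.6, 20.8 and 23.7 in DU145KO+vector, groups that did not overlap, with -0.35 (SE 0.09, adjusted p = 0.0169). Its samples in DU145KO, at 20.4, 18.9, 21.6 and 19.1 CPM, overlapped both. The median log2 fold change of the 30 listed RNAs tested was 0.01 between the transfected lines, -0.09 between DU145KO+α2 and DU145KO and 0.03 between DU145KO+vector and DU145KO, beside -0.0062, -0.0031 and -0.0011 over all genes tested.

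Antisense RNAs were then compared with their sense gene, the gene whose symbol precedes -AS. The sense gene is in the count table for 270 of the 276 antisense RNAs and passed the filter on low counts for 248. In 106 of these pairs the genes start head to head, divergent within 1000 bases of each other, in 113 other pairs exons overlap, in 26 the antisense RNA lies within introns of the gene or beside it, and 3 could not be placed. The antisense RNA was usually the scarcer partner: the ratio of antisense to sense RPKM had a median of 0.223, and the antisense RNA was higher in 50 of 248 pairs (20.2%). The median was 0.187 in head to head pairs and 0.231 in pairs with overlapping exons. The ratio reached 168 for LRRC75A-AS1, with LRRC75A at 0.572 RPKM, and was 9.92 for MMP24-AS1, 5.91 for OIP5-AS1 and 3.44 for MSC-AS1.

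**Figure D3:**
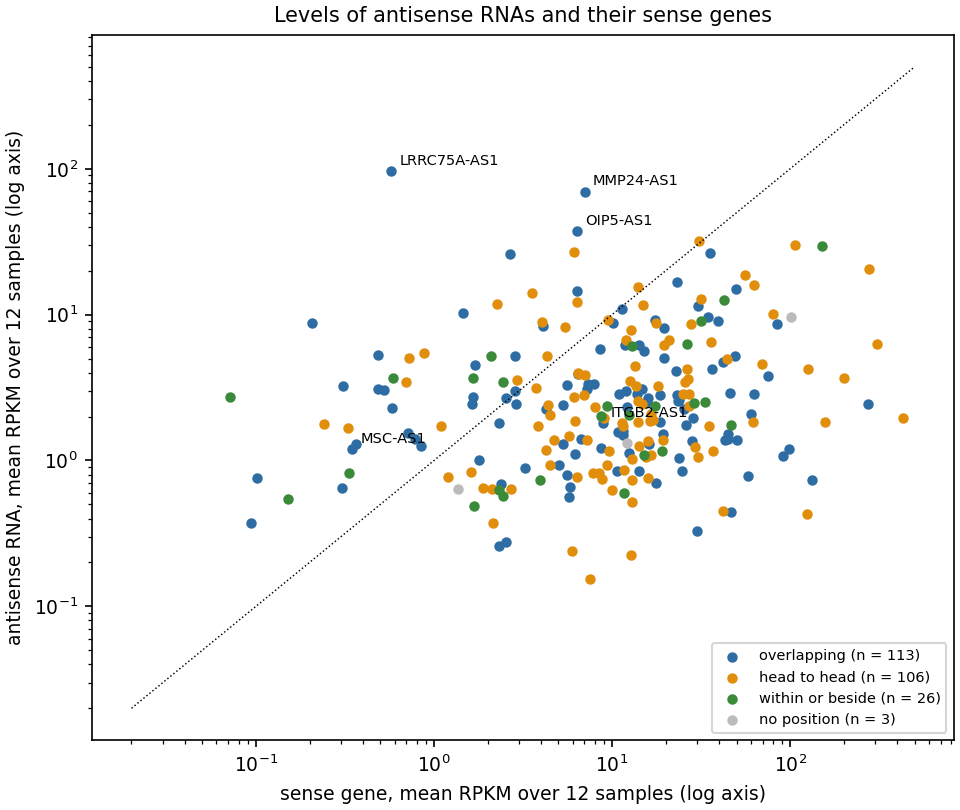
Mean RPKM over 12 samples of the antisense RNA against that of its sense gene (both log axes) for 248 pairs, coloured by the arrangement of the genes, with a dotted line where both are equal. Most points lie below the line, and 50 lie above it, with LRRC75A-AS1 the farthest above it.

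A further 22 antisense RNAs were detected beside a sense gene too scarce to test. FGD5-AS1 had 2759 to 4058 reads a sample and FGD5 at most 1, and TP73-AS1 had 707 to 1198 reads and TP73, a relative of the p53 gene, 0 to 4. AGAP2-AS1 had 208 to 354 reads and AGAP2 2 to 13, and FLG-AS1 had 221 to 396 reads and FLG, the gene of the skin protein filaggrin, 0 to 4. The sense genes of SAPCD1-AS1, SDCBP2-AS1 and LY86-AS1 had no read in any sample, which allows up to 3 reads a sample by counting error alone. None of the 22 was DE in a comparison with edgeR, DESeq2 or voom, and the unadjusted edgeR p was below 0.05 for 0, 2 and 1 of them in the 3 comparisons, beside 24.9%, 21.4% and 15.03% of all genes tested. SAPCD1-AS1 passed at any fold change, with -0.41 (SE 0.11, edgeR adjusted p = 0.0248) in DU145KO+α2 against DU145KO, where 8.17% of all genes tested passed.

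Where an antisense RNA passed at any fold change between DU145KO+α2 and DU145KO+vector, the sense gene was examined in the same fit. Of the 19 such antisense RNAs with a tested sense gene, the sense gene passed in 5, in the same direction each time, while 32 of all 248 sense genes (12.9%) passed. The 5 pairs, named after their values were seen, were ITGB2 and PRKAG2, described above, ARRDC1, ST3GAL4 and CTBP1. ARRDC1-AS1 and ARRDC1 fell by 0.46 and 0.35 on the log2 scale (edgeR adjusted p = 0.00341 and 0.0246), within the chromosome 9 region named above. ST3GAL4-AS1 and ST3GAL4, which encodes a sialyltransferase, were higher in DU145KO+α2 by 0.56 and 0.46 (edgeR adjusted p = 0.0489 and 0.0123). CTBP1-AS2 and CTBP1, which encodes a transcriptional corepressor, were higher by 0.36 and 0.24 (edgeR adjusted p = 0.0158 and 0.0390). Both antisense RNAs overlapped between DU145KO and DU145KO+α2, ST3GAL4-AS1 at 4.74 to 7.67 and 5.98 to 7.58 CPM, CTBP1-AS2 at 29.8 to 34.6 and 28.2 to 34.2. CTBP1-AS2 was low in DU145KO+vector alone, at 22.8 to 27.4 CPM. With the replicate block the antisense RNA passed in 53 pairs and both partners in 27, of which 20 moved in the same and 7 in opposite directions, while 79 of all 248 sense genes (31.9%) passed.

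Between DU145KO+α2 and DU145KO both partners passed in 2 pairs of 8, ITGB2 and PSMB8, and in 9 pairs of 31 with the block, all in the same direction. Of all 248 sense genes 23 (9.27%) passed, and 64 (25.8%) with the block. PSMB8-AS1, across from the gene of an immunoproteasome subunit, had 6.83, 5.60, 5.61 and 4.07 CPM in DU145KO+α2 and 16.01, 10.02, 8.48 and 8.14 in DU145KO, and fell by 0.94 (SE 0.25, edgeR adjusted p = 0.0284), while PSMB8 fell by 0.80 (SE 0.13, adjusted p = 0.00145). Between DU145KO+vector and DU145KO 1 antisense RNA passed with its sense gene not passing, and 7 of 17 pairs passed with both partners in the block fit, again all in the same direction, while 45 of the 248 sense genes (18.1%) passed in that fit. Over the 248 pairs the log2 fold changes of the partners had a Spearman correlation of 0.26 and a Pearson correlation of 0.32 for DU145KO+α2 against DU145KO+vector, 0.18 and 0.19 for DU145KO+α2 against DU145KO and 0.20 and 0.14 for DU145KO+vector against DU145KO. These describe gene pairs that share the same libraries and, where exons overlap, possibly reads.

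**Figure D4:**
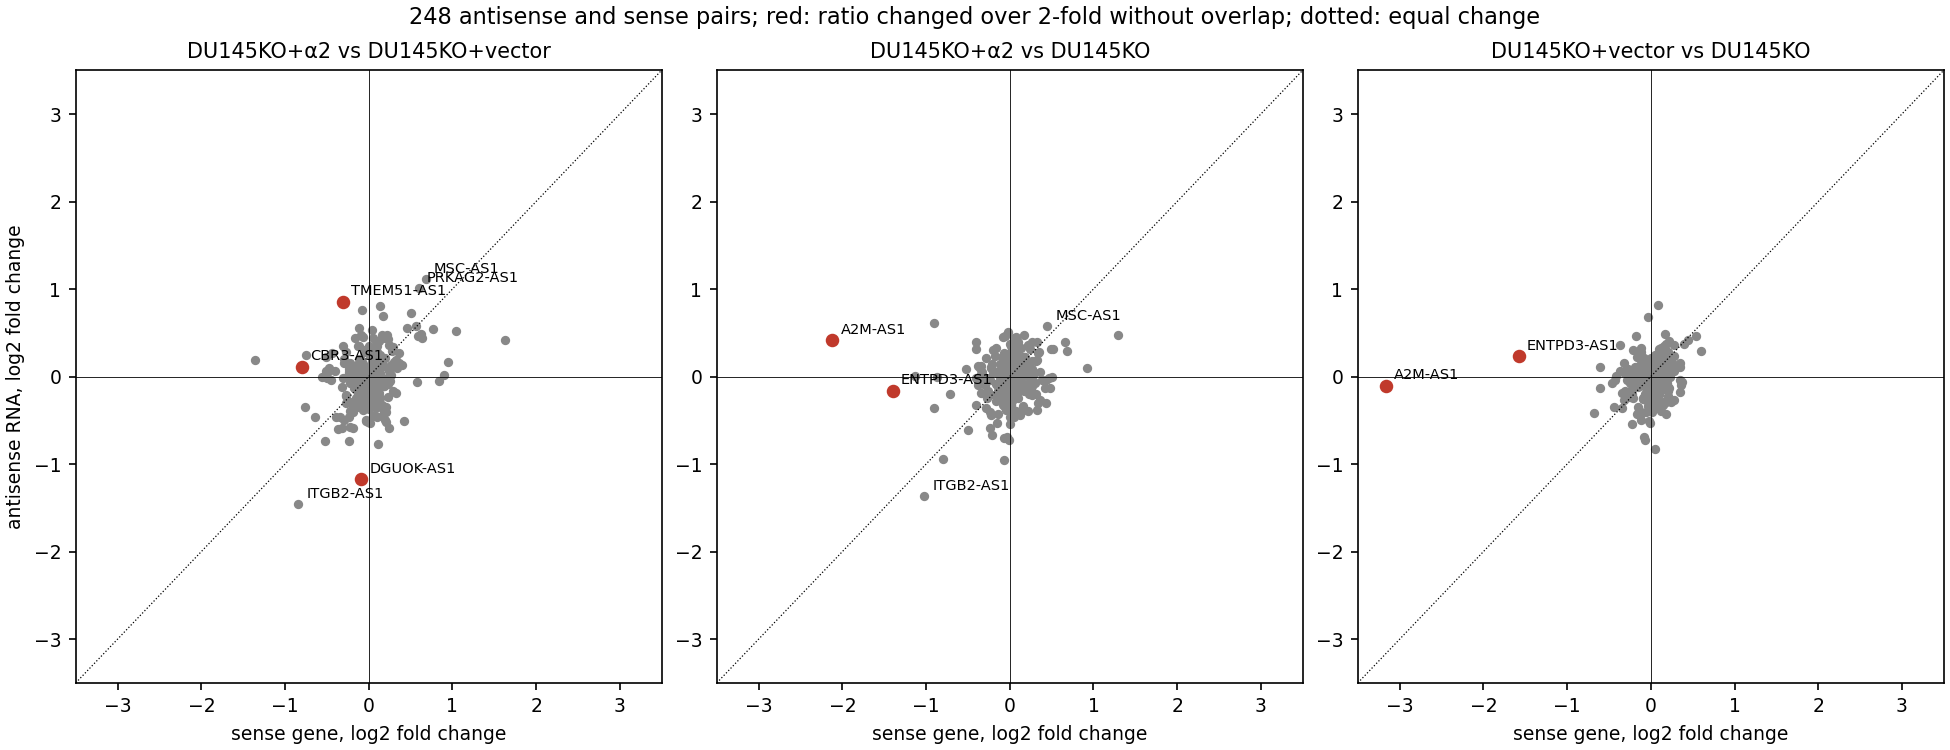
Log2 fold change of the antisense RNA against that of its sense gene for 248 pairs in each of the 3 comparisons, with a dotted line where both change alike. Red points are the 3, 2 and 2 pairs whose ratio differed over 2-fold without overlap, and ITGB2-AS1 lies in the lower left of the comparisons that involve DU145KO+α2.

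A pair was counted as changed in its ratio where the log2 ratio of antisense to sense counts did not overlap between the 4 samples of each line and its mean differed by more than 1. This held for 3 of 248 pairs (1.21%) between DU145KO+α2 and DU145KO+vector, beside 4.33% of neighbouring tested genes taken as pairs, and for 2 pairs (0.806%) in each comparison with DU145KO, beside 3.69% for DU145KO+α2 and 2.16% for DU145KO+vector. Ratios without overlap of any size were found in 25 (10.1%), 17 (6.85%) and 17 (6.85%) pairs, beside 17%, 13.2% and 8.09% of the neighbouring genes. Paired by replicate number, with all 4 differences of 1 sign, 5, 4 and 2 pairs were changed. The number between the transfected lines was 7 without DU145KO+vector replicate 1 and 5 without DU145KO+α2 replicate 4, and for DU145KO+α2 against DU145KO it was 5 without DU145KO replicate 4 and 4 without DU145KO+α2 replicate 4. Each of the changed pairs named here has the exact permutation p of 0.0286. Any pair without overlap has this p, so it follows from the rule and adds no support. It is not adjusted over the 248 pairs.

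Besides DGUOK, the changed pairs between the transfected lines were CBR3 and TMEM51. CBR3-AS1 had 28, 29, 27 and 30 reads in DU145KO+α2 and 35, 16, 36 and 13 in DU145KO+vector, with a log2 fold change of 0.11 (SE 0.26, edgeR adjusted p = 0.845), and its ratio was higher by 1.03, while CBR3, a carbonyl reductase gene, fell by 0.80 (SE 0.17, adjusted p = 0.00662), from 8.09, 6.89, 7.25 and 7.51 CPM in DU145KO+vector to 3.48, 4.75, 3.49 and 5.41. Exons of the antisense RNA cover 71.1% of the exon bases of CBR3. TMEM51-AS1, head to head with TMEM51 at 102 bases, had 1.55, 2.25, 1.48 and 2.86 CPM in DU145KO+α2, 0.998, 0.934, 1.55 and 0.964 in DU145KO+vector and 2.12, 1.65, 1.29 and 2.40 in DU145KO. Its ratio to TMEM51 was higher by 1.14 in DU145KO+α2 than in DU145KO+vector, while its own log2 fold change of 0.86 (SE 0.28, adjusted p = 0.0628) did not pass (0.0233 with the replicate block) and the groups overlapped through DU145KO+vector replicate 3. Without that sample TMEM51-AS1 was called, with 1.07 (adjusted p = 0.0444).

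In both comparisons with DU145KO the changed pairs were A2M and ENTPD3, and there the sense gene moved and the antisense RNA did not pass the test. A2M, the gene of the protease inhibitor alpha-2-macroglobulin, had 10.5, 7.45, 10.9 and 3.98 CPM in DU145KO, 2.67, 1.85, 2.01 and 0.955 in DU145KO+α2 and 1.83, 0.575, 0.978 and 0.0689 in DU145KO+vector. It was lower in every sample of both transfected lines, with log2 fold changes of -2.12 (SE 0.46, edgeR adjusted p = 0.0134) and -3.17 (SE 0.51, adjusted p = 0.00767), the last value of DU145KO+vector being 1 read. A2M-AS1 (chr12:9065177-9068055, plus strand) had 2.84, 3.67, 2.70 and 2.11 CPM in DU145KO, 4.53, 3.35, 3.78 and 3.5 in DU145KO+α2 and 2.77, 2.44, 3.05 and 2.20 in DU145KO+vector. Its log2 fold change was 0.42 (SE 0.19, adjusted p = 0.209) and -0.11 (SE 0.20, adjusted p = 0.869) against DU145KO, and the log2 ratio was higher by 2.53 and 3.61. Between the transfected lines A2M-AS1 did not overlap, with 0.52 (SE 0.19, adjusted p = 0.0898), which did not pass, and an adjusted p of 0.0299 with the replicate block. A2M overlapped there, with 1.05 (SE 0.57, adjusted p = 0.293), which is not a call. With the replicate block A2M had 1.11 (adjusted p = 0.00533), which is one, so both partners passed higher in DU145KO+α2 in that fit. Exons of A2M cover 19.03% of those of A2M-AS1.

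ENTPD3, the gene of an ectonucleotidase, had 1.65, 1.71, 2.21 and 1.35 CPM in DU145KO, 0.994, 0.850, 0.414 and 0.318 in DU145KO+α2 and 0.887, 0.359, 0.518 and 0.482 in DU145KO+vector. It was lower in every sample of both, with log2 fold changes of -1.40 (SE 0.34, edgeR adjusted p = 0.0155) and -1.58 (SE 0.35, adjusted p = 0.0244), on 5 to 36 reads a sample. ENTPD3-AS1 had 1.46, 1.59, 0.983 and 1.17 CPM in DU145KO, 1.06, 1.35, 1.06 and 1.15 in DU145KO+α2 and 1.33, 1.15, 2.19 and 1.38 in DU145KO+vector, all overlapping, with log2 fold changes of -0.16 (SE 0.26, adjusted p = 0.794) and 0.23 (SE 0.25, adjusted p = 0.746). The log2 ratio was higher by 1.35 and 1.81. These comparisons share the DU145KO samples. With at least 10 reads of both genes required in every sample, neither the A2M nor the ENTPD3 pair remained, and no pair was changed in ratio against DU145KO.

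**Figure D5:**
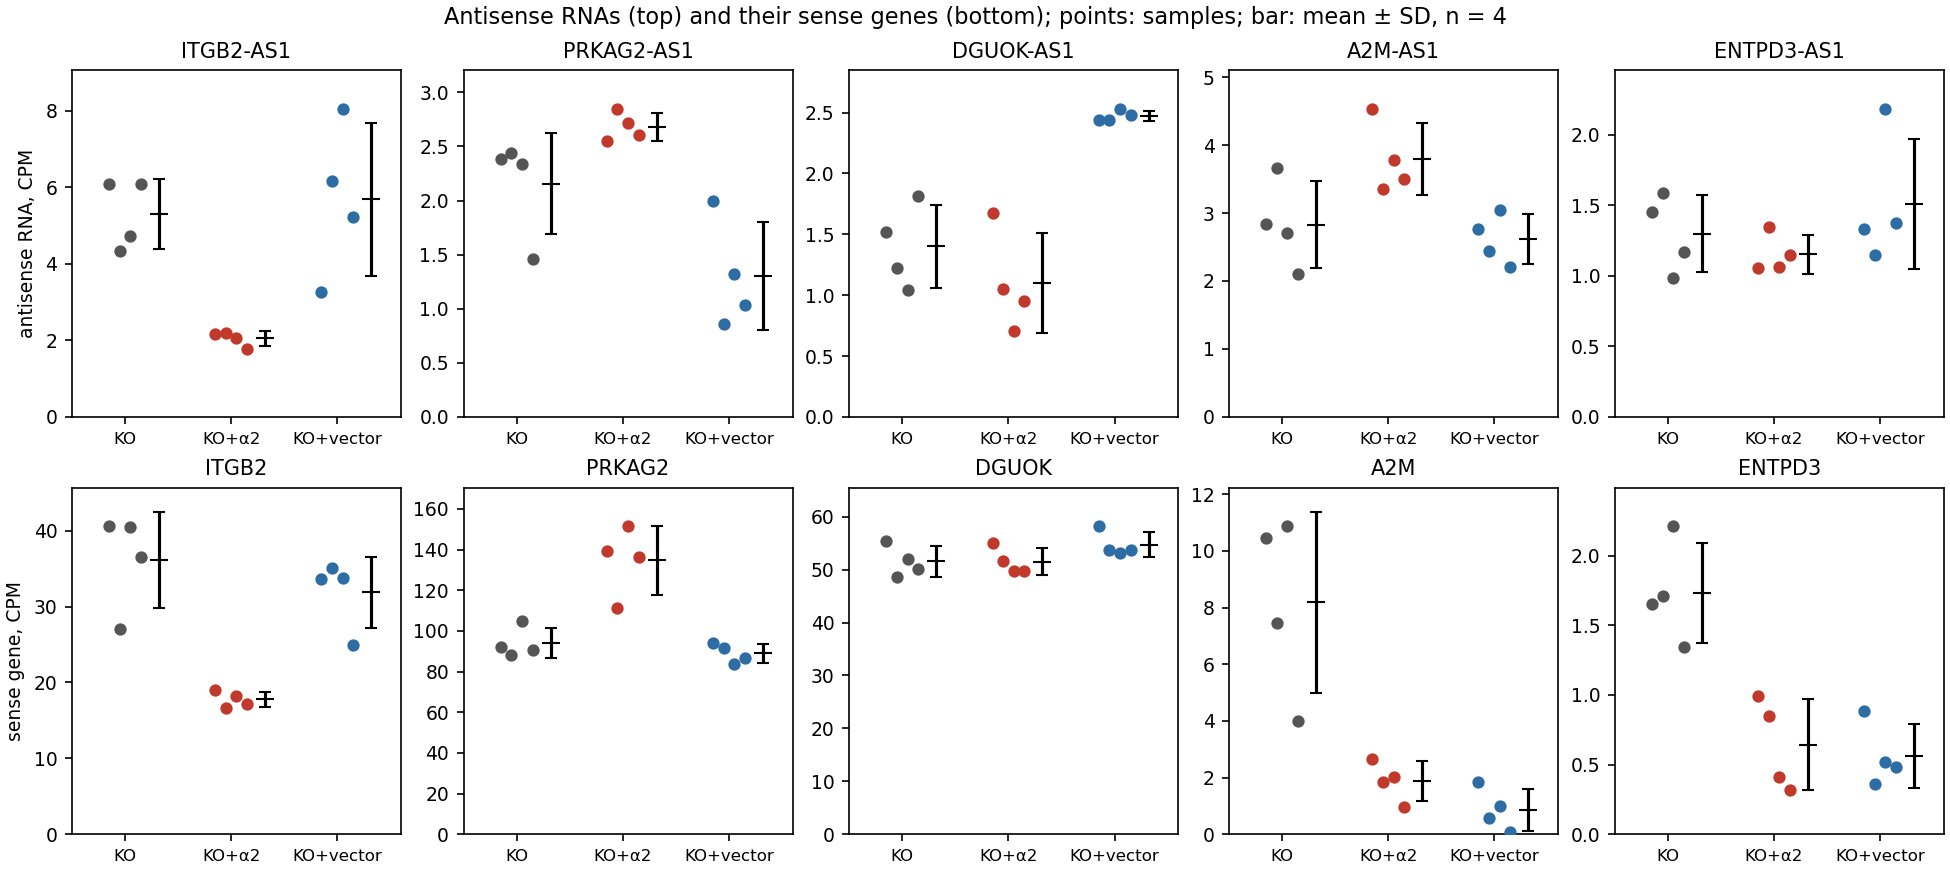
CPM of 5 antisense RNAs (top) and of their sense genes (bottom) in each sample of the 3 lines, with the mean ± SD of the 4 samples beside them. ITGB2-AS1 and ITGB2 are both lowest in DU145KO+α2, PRKAG2-AS1 and PRKAG2 both highest there, DGUOK-AS1 is high in DU145KO+vector while DGUOK is level, and A2M and ENTPD3 are high in DU145KO while their antisense RNAs overlap between DU145KO and each transfected line.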

How the data were processed

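The members and lists were chosen with earlier results of these data known. Lines and replicate numbers were taken from the sample labels, read with the names of the lines in the study's methods. The authors aligned single-end reads to hg38 with TopHat 2.1.0 after base calling with bcl2fastq 1.8.4, and counted uniquely aligned reads per known gene with Subread 1.5.0. The authors deposited these raw counts, and RPKM values that they made from them after TMM normalization. Sequencing lanes entered no fit.

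Counts were tested in R 4.3.3 with edgeR 4.0.16 (filterByExpr with a minimum count of 10, TMM, robust quasi-likelihood test, a factor for the line over all 12 samples, Benjamini-Hochberg adjustment over 14732 genes, two-sided). The edgeR fits with and without the replicate block, voom with limma and DESeq2 were first tried on simulated counts with known changes. The ratio rule and its permutation test were not. Within each line, replicates differed beyond sampling noise, so none was counted as a duplicate. Samples with the same replicate number deviated together from their group means (mean correlation 0.378, lowest 0.135 over all genes). The mean of -0.126 for different numbers follows from this once group means are subtracted, and adds no support. The numbers were taken to pair the samples, and the fit with the number as a block is given where it changes a call. Ratios of antisense to sense counts used 0.5 added reads and an exact permutation test, two-sided. Alternatives were DESeq2 1.42.0, voom with limma 3.58.1, other scalings, filters and thresholds, and each sample left out in turn; any-fold calls with the block were chosen after seeing the data.

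Genes named are the 8 RNAs with the highest RPKM, up to 4 DE RNAs in each direction per comparison whose groups do not overlap, the pairs with the largest change of ratio among those called (6 between the transfected lines, 3 in each other comparison), called RNAs of the list with a described role, the 3 RNAs on either side of the limit and ITGA2. Others were named after their values were seen, as stated. Positions come from RefSeq and GENCODE annotations on GRCh38, for 392 of the 398 RNAs, and promoters from RefSeq. Reads carry no molecular identifiers, so floors cover counting error only. The strand setting of the counting is not given in the sources used here, and 3 rows with LINC identifiers but no symbol are outside the rule. One marker gene of the cell line check is not reported here.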

Additional observations from a re-analysis of the deposited data

Results flagged for a closer look

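In 8 of the 90 groups of 4 samples examined (the named RNAs and sense genes in each line) 1 sample stood apart from the other 3 by Dixon's test at the 95% level, where chance flags about 1 in 20 groups, or 4.5 of 90. The gap divided by the whole range of the line was 0.950 for LINC01420 in DU145KO+vector, where replicate 3 had 22.5 CPM and the others 30.9 to 31.4, and 0.868 for OIP5-AS1 in DU145KO, where replicate 3 had 61.2 CPM and the others 68.4 to 69.5. It was 0.890 for PRKAG2-AS1 in DU145KO, where replicate 4 had 1.46 CPM and the others 2.34 to 2.44, and 0.897 for TMEM51-AS1 in DU145KO+vector, where replicate 3 had 1.55 CPM and the others 0.934 to 0.998. Among sense genes it was 0.899 for DGUOK in DU145KO+vector (replicate 1 at 58.2 CPM, the others at 53.2 to 53.7) and 0.860 for ITGB2 in DU145KO+vector (replicate 4 at 24.9 CPM, the others at 33.7 to 35.1). FGD5, with at most 1 read a sample, gave 0.953 in DU145KO (replicate 1 without a read) and 1 in DU145KO+vector (replicate 4 with the one read of the line).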

How the results depend on the processing

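The number of DE RNAs between DU145KO+α2 and DU145KO+vector was 5 and moved to 29 at any fold change, 77 at any fold change with the replicate block, 2 among RNAs with a mean count of 50 or more and 8 with 10 or more, and between 4 and 7 with a sample left out. Against DU145KO, DU145KO+α2 had 1 DE RNA, which became 15, 47 and, with a mean count of 10 or more, 6, and 1 to 3 with a sample left out. DU145KO+vector had none against DU145KO, and 1 with DESeq2, with the replicate block or by fold change alone, 3 at any fold change, 32 with the block and 0 to 2 with a sample left out. These RNAs gained a 2-fold call without a given sample: AFAP1-AS1 (-1.04, -1.06) and PSMB8-AS1 (-1.04, -1.05, -1.05) against DU145KO without DU145KO replicates 2, 3 or 4 or DU145KO+α2 replicate 1, LINC01123 (-1.01) without DU145KO+α2 replicate 2, KLF3-AS1 (1.04) and TMEM51-AS1 (1.07) between the transfected lines without DU145KO+vector replicate 3, and between DU145KO+vector and DU145KO LINC01322 (1.37, 1.21), LINC01137 (-1.04) and AFAP1-AS1 (-1.01) without DU145KO replicate 4 or DU145KO+vector replicate 1. The pairs with a changed ratio, 3, 2 and 2, became 25, 17 and 17 at any size and 5, 4 and 2 with the replicate block. They became 3, 0 and 0 with at least 10 reads of both genes in every sample, and ranged from 2 to 7, 2 to 5 and 2 to 3 with a sample left out. Of the alternatives for the 51 named values, 650 kept the call and size, 3 lost a call (PRKAG2-AS1), LINC01322 was no longer tested with at least 10 reads in every sample, and 5 gained one (LINC01322 in 4, TMEM51-AS1 in 1). In 2 a value moved, LINC00998 once its regional median was subtracted (-0.48 and -0.16), and 27 changed sign with no call in either fit. No called value reversed, and the replicate block changed no call of a named RNA at 2-fold other than LINC01322. Among the named sense genes the block gave A2M a 2-fold call between the transfected lines. The cause of these shifts was not tested. How small a change can be detected at about 20 reads a sample was not tested.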

Other observations

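Long noncoding RNAs that carry neither a LINC nor an antisense symbol were read from a list of 57, of which 42 were tested. The highest were GAS5 at 448 RPKM, SNHG6 at 223, ZFAS1 at 183 and SNHG5 at 174, host genes of small nucleolar RNAs, all above LINC00657 at 124. The nuclear speckle and paraspeckle RNAs MALAT1 and NEAT1 were at 86.9 and 86.6 RPKM, with log2 fold changes of 0.13 (SE 0.23, edgeR adjusted p = 0.793) and 0.30 (SE 0.22, adjusted p = 0.448) between DU145KO+α2 and DU145KO+vector. MIR210HG, the host gene of a microRNA induced by low oxygen, was at 12.3 ± 3.46 CPM (SD, n = 4) in DU145KO+α2, 5.83 ± 0.627 in DU145KO+vector and 6.33 ± 1.29 in DU145KO. It was the 1 DE RNA of the 42 between the transfected lines, beside 2.21% of all genes tested (log2 fold change 1.08, SE 0.19, edgeR adjusted p = 0.00140). Against DU145KO it was higher by 0.96 (adjusted p = 0.00389). At any fold change CRNDE (0.51, adjusted p = 0.0404) and HOTAIR (0.41, adjusted p = 0.0403) were higher and SNHG7 (-0.45, adjusted p = 0.0156) lower between the transfected lines, and CRNDE was higher than in DU145KO by 0.92 (adjusted p = 0.00152). With MIR210HG, 3 of the 42 were higher and 1 lower between the transfected lines, beside 11.9% of all genes tested. Against DU145KO 2 were higher and 0 lower, beside 8.17%. SNHG7 lies on chromosome 9, where the tested genes within 2 Mb had a median of -0.30. None of the 42 passed between DU145KO+vector and DU145KO at any fold change with edgeR, DESeq2 or voom. The unadjusted edgeR p was below 0.05 for 6 of them, beside 15.03% of all genes tested, and with the replicate block 1 was higher and 1 lower, beside 13.4%. Between the transfected lines the block gave 7 higher and 1 lower, beside 26.5%.

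Of 14 RNAs antisense to genes with symbols of developmental transcription factor families, or that share their opening letters as PAXBP1 and PAXIP1 do, FOXD3-AS1 was higher in DU145KO+α2 than in DU145KO+vector at any fold change, with 8.76, 8.70, 7.68 and 7.64 CPM against 5.93, 5.75, 6.04 and 4.13, groups that did not overlap (log2 fold change 0.58, SE 0.14, edgeR adjusted p = 0.0119). The others did not pass in that comparison, where 11.9% of all genes tested did. With the replicate block 2 of the 14 were higher and 1 lower, beside 26.5% of all genes. None passed in the other comparisons with edgeR, where the unadjusted p was below 0.05 for 2 between DU145KO+α2 and DU145KO and 0 between DU145KO+vector and DU145KO, beside 21.4% and 15.03% of all genes. In the first of these DESeq2 passed 1 and voom 0, and the block gave 1 higher and 1 lower, beside 22.3%.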
